A study of Mus musculus with 4 samples.

Results

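RNA of creatine and calcium cycling genes was compared between isolated mitochondria of mouse brown adipose tissue and a second fraction labelled total. The genes were chosen by symbol from the deposited table and comprise 3 creatine kinases (Ckb, Ckmt1, Ckmt2), the enzymes of creatine synthesis (Gatm, Gamt), the creatine transporter (Slc6a8), the phosphatase Alpl and the calcium pump Atp2a2. Of these 8 genes, 7 are among the 17259 genes listed, Ckmt1 has no row in the table used here, and 4 (Ckb, Slc6a8, Alpl, Atp2a2) reached the mean of at least 10 normalised counts that was required for testing.

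The study sequenced RNA of wild-type mice, with 2 libraries of isolated mitochondria (BAT-Mito) and 2 libraries of the second fraction (BAT-total). The age of the animals and their housing temperature are not given in the sources used here. The treatment label of BAT-total names tissue from which mitochondria had been removed, whereas its title and the study speak of total tissue, so that mitochondria may or may not be part of it. Whether the replicates come from separate animals is not stated, and p-values therefore measure only the spread between these libraries, which may be technical.

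Brown adipocytes dissipate energy as heat mainly through Ucp1, which makes the inner mitochondrial membrane leaky for protons. Cycles that spend ATP without net work have been proposed as further sources of heat. In the creatine cycle, creatine kinases transfer phosphate from ATP to creatine and a phosphatase removes it again, and in the calcium cycle, SERCA pumps return calcium to the endoplasmic reticulum while it leaks out through ryanodine or IP3 receptors. All of these proteins are encoded in the nucleus, and their mRNAs are translated outside the mitochondrial matrix.

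The values are gene counts that the authors divided by a size factor per library, here called normalised counts. In BAT-Mito the values moved in steps of 8.32 units (replicate 1) and 6.90 units (replicate 2), each step being 1 read, so that whole reads could be recovered (26288871 and 24910434). In BAT-total the reads behind 1 unit are unknown. Mitochondrially encoded genes took 95.3% and 95.5% of the BAT-Mito values and 51.1% and 59.3% of the BAT-total values. Nuclear protein-coding genes had 49420 and 58238 reads in BAT-Mito, a small part of what the mitochondrially encoded genes left. A floor of 3 reads corresponds to 25.0 and 20.7 units in the BAT-Mito libraries. Atp2a2 lay above it in both libraries and Gatm in replicate 2, while every other value of these genes in BAT-Mito rests on 0 to 3 reads.

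Across the 4 genes tested, none differed between BAT-Mito and BAT-total at an adjusted p under 0.05 (limma, Benjamini-Hochberg over 8215 genes). Among all genes tested, 0.803% were called higher and 4.41% lower in BAT-Mito. An unadjusted p under 0.05 was found for 1 of the 4 genes (Slc6a8) and for 18.1% of all genes. The median log2 fold change of the 4 genes was -1.64, with a range of -2.49 to -0.14, beside a median of -1.23 over all genes tested. For Slc6a8, Alpl and Atp2a2 both BAT-Mito libraries lay below both BAT-total libraries, an order that 52.1% of all genes tested shared. The reverse order, found in 8.59% of all genes, occurred for none of the 4. In bulk RNA, fewer cells of a type and less RNA per cell cannot be told apart.

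**Figure D1:**
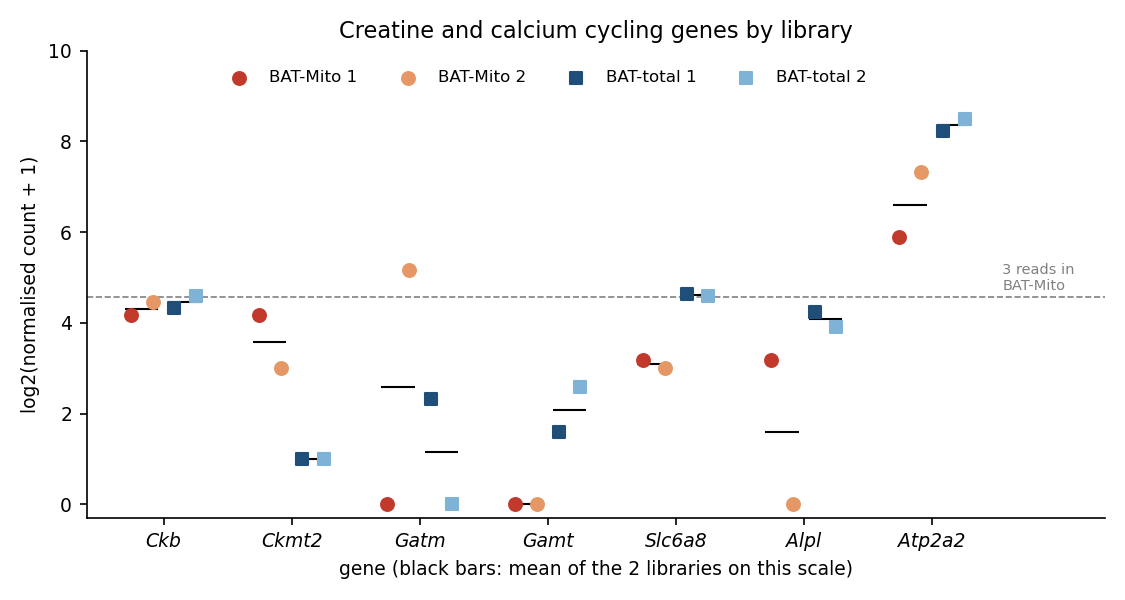
Log2(normalised count + 1) of the 7 listed genes, with 1 point per BAT-Mito (circles) or BAT-total (squares) library, black bars for group means and a dashed line at the mean floor of 3 reads in BAT-Mito. The BAT-Mito points of Atp2a2 lie below its BAT-total points, those of Ckmt2 above, and those of Ckb among them.

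Ckb, the cytosolic creatine kinase of brain and brown fat, had 17 and 21 normalised counts in BAT-Mito (2 and 3 reads) and 19 and 23 in BAT-total. The groups overlapped, with means of 19 ± 2.83 and 21 ± 2.83 (SD, n = 2 each). The log2 fold change was -0.14 ± 0.43 (SE) with an adjusted p of 0.839 in limma, which placed Ckb at percentile 78.7 of the fold changes of all genes tested and 1.09 above their median. The sign turned with the scaling, with TMM giving 0.19, median ratios 0.48 and CPM over nuclear protein-coding genes 0.49. From the reads, the BAT-Mito level was 0.898 times that of BAT-total, with a 95% Poisson interval of 0.292 to 2.1 that covers counting error in BAT-Mito only.

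Ckb spans positions 111669361 to 111672338 on the minus strand of chromosome 12 (GRCm38). A processed pseudogene, Gm12892 on chromosome 4 (122008193 to 122009338), matches its transcript at 95% identity or more. Of the 1398 windows of 75 bases in the transcript, 188 (13.4%) also occur there, and reads from such windows were left out by the counting as the study describes it. Gm12892 itself had 0 and 7 normalised counts in BAT-Mito and 3 and 2 in BAT-total, so that the Ckb level is uncertain by the reads lost in this stretch.

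Ckmt2, the sarcomeric creatine kinase of the mitochondrial intermembrane space, had 17 and 7 normalised counts in BAT-Mito, which are 2 reads and 1 read, and 1 and 1 in BAT-total. Both BAT-Mito libraries lay above both BAT-total libraries, an order that 1 read in each BAT-Mito library already gives at these BAT-total values. The mean of Ckmt2, 6.5, was too low for the test. With 3 reads in all, the ratio of BAT-Mito to BAT-total was 11.3, with a counting interval of 2.33 to 33.1 that widens to 1.56 to 66.2 once the rounding of the BAT-total values is included. Without the filter on low values the log2 fold change was 2.58 with an adjusted p of 0.0794 (limma). Ckmt2 lies on chromosome 13 (91853387 to 91876885, minus strand), and its exons overlap those of 1700119I11Rik on the opposite strand, which shares 0.8% of its windows. Ckmt1, the ubiquitous mitochondrial creatine kinase, was not analysed here.

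Within a library, the share of Ckb in the summed counts of Ckb and Ckmt2 does not depend on the scaling between libraries. This share was 50% in BAT-Mito replicate 1 (2 of 4 reads, Wilson interval 15% to 85%) and 75% in replicate 2 (3 of 4 reads, 30.1% to 95.4%). In BAT-total it was 95% and 95.8%. The means of 62.5% ± 17.7 and 95.4% ± 0.589 (SD, n = 2 each) differed by -32.9 percentage points, and the two-sided exact permutation test gave p = 0.333, the smallest value that 2 against 2 libraries allow. The difference was -20.4 percentage points without BAT-Mito replicate 1 and -45.4 without replicate 2.

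Ckm, the muscle creatine kinase, had 92 and 55 normalised counts in BAT-Mito and 12 and 26 in BAT-total, with a log2 fold change of 1.95 ± 0.64 (SE) and an adjusted p of 0.271 (limma). With Ckm added to the sum, Ckb took 13.5% and 25.3% in BAT-Mito and 59.4% and 46% in BAT-total. Ckm itself took 73% and 66.3% of these counts in BAT-Mito. The 12 markers of fast skeletal muscle, Ckm included, summed to 4012 and 1277 normalised counts in BAT-Mito and to 363 and 798 in BAT-total. All 12 were listed above 0 in every library, and their part in the creatine kinase shares was not tested.

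**Figure D2:**
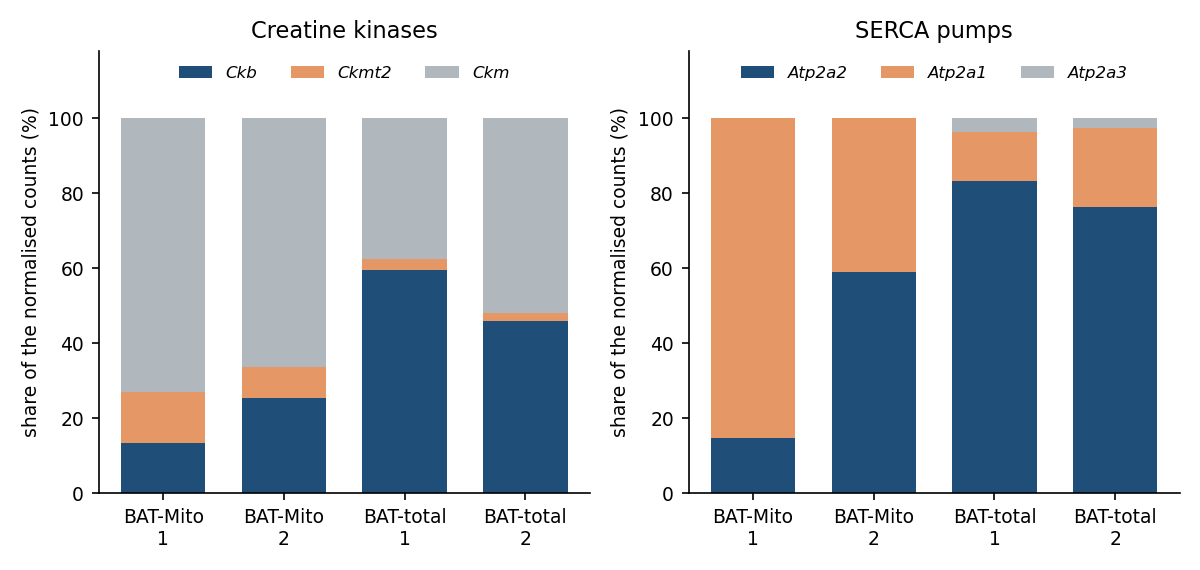
Shares (percent) of the creatine kinase counts (Ckb, Ckmt2, Ckm) and of the SERCA counts (Atp2a1, Atp2a2, Atp2a3) by isoform in each of the 4 libraries, as stacked bars from 0 to 100. Ckm takes 73% and 66.3% of the creatine kinase counts in BAT-Mito and 37.5% and 52% in BAT-total.

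Gatm, the mitochondrial enzyme that forms guanidinoacetate as the first step of creatine synthesis, was at 0 in BAT-Mito replicate 1 and at 35 normalised counts (5 reads) in replicate 2. In BAT-total it had 4 and 0. The groups overlapped, and the mean of 9.75 lay just under the minimum for testing. Without that minimum the log2 fold change was 1.42 with an adjusted p of 0.71 (limma). A single library thus carried all BAT-Mito reads of Gatm (chromosome 2, 122594467 to 122611303, minus strand). The 10 liver markers summed to 13157 and 995 normalised counts in BAT-Mito and to 303 and 71 in BAT-total. The BAT-Mito library with the higher liver sum was replicate 1, in which Gatm was at 0. The part of liver RNA in the Gatm values was not tested.

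Gamt methylates guanidinoacetate to creatine. It was at 0 in both BAT-Mito libraries and had 2 and 5 normalised counts in BAT-total. All of these values lie under the floor of 3 reads in BAT-Mito, so no fold is given, and a difference was not detectable at this depth. At the BAT-total level 0.928 reads would have fallen in the BAT-Mito libraries together. Gamt is a short gene on chromosome 10 (80258151 to 80261012, minus strand).

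Slc6a8, the sodium- and chloride-dependent creatine transporter of the plasma membrane, had 8 and 7 normalised counts in BAT-Mito (1 read each) and 24 and 23 in BAT-total. Both BAT-Mito values lay below both BAT-total values, with means of 7.5 ± 0.707 and 23.5 ± 0.707 (SD, n = 2 each). The log2 fold change was -1.53 ± 0.41 (SE), with an unadjusted p of 0.0275 and an adjusted p of 0.228 in limma. It lay 0.30 below the median of all genes tested, at percentile 42.3. The ratio from 2 reads was 0.321, with a counting interval of 0.0389 to 1.16 that includes equal levels. The small spread between the BAT-Mito values is that of 1 read in each library. Slc6a8 lies on chromosome X (73673150 to 73682502, plus strand).

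Alpl, the tissue-nonspecific alkaline phosphatase that can remove phosphate from phosphocreatine, had 8 and 0 normalised counts in BAT-Mito (1 read in all) and 18 and 14 in BAT-total. The groups did not overlap. The log2 fold change of -2.49 ± 1.29 (SE) had an adjusted p of 0.357 in limma and rests on a value of 0 in 1 library. The ratio from this read was 0.236 (0.00597 to 1.31). Alpl lies on chromosome 4 (137741733 to 137796384, minus strand).

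Atp2a2, which encodes SERCA2, the calcium pump of the endoplasmic and sarcoplasmic reticulum, was the best covered of these genes. It had 58 and 159 normalised counts in BAT-Mito (7 and 23 reads) and 299 and 360 in BAT-total. Both BAT-Mito libraries lay below both BAT-total libraries, and they differed from each other more than the BAT-total libraries did. The means were 108.5 ± 71.4 and 329.5 ± 43.1 (SD, n = 2 each).

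The log2 fold change of Atp2a2 was -1.76 ± 0.69 (SE), with an unadjusted p of 0.0753 and an adjusted p of 0.301 in limma. It lay 0.53 below the median of all genes tested, at percentile 36.3. The 30 reads of both BAT-Mito libraries gave a ratio of 0.343 to BAT-total, with a counting interval of 0.232 to 0.49. On reads, the adjusted p was 0.0788 with the edgeR quasi-likelihood test and 0.14 with DESeq2. Atp2a2 lies on chromosome 5 (122453513 to 122502225, minus strand). Of its 5600 windows, 149 (2.7%) also occur in other transcripts, among them Gm43361, which overlaps it on the opposite strand, and the processed pseudogene Gm30970 on chromosome 14.

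**Figure D3:**
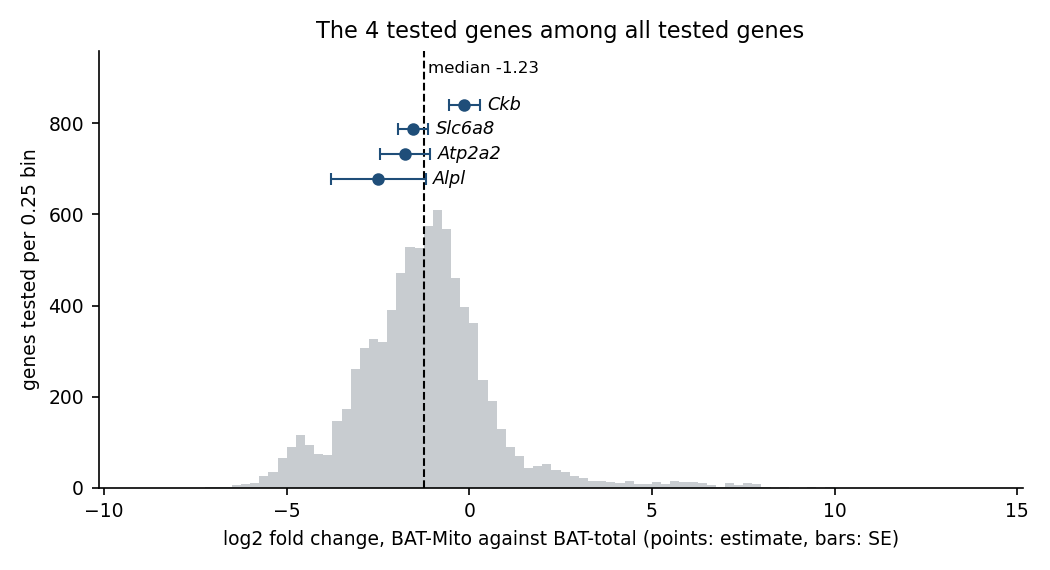
Histogram of log2 fold changes (BAT-Mito against BAT-total) of the 8215 genes tested, in genes per bin, with the estimate and SE of 4 genes drawn above it and the median of -1.23 as a dashed line. Slc6a8, Alpl and Atp2a2 lie below this median and Ckb above it.

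The calls and fold changes depended on single libraries. Without BAT-Mito replicate 1, the adjusted p was 0.0231 for Slc6a8 and 0.0187 for Alpl, while 41.1% of all genes were called lower. Without BAT-Mito replicate 2, it was 0.0225 for Slc6a8 and 0.0217 for Atp2a2 (log2 fold change -2.48), while 47% of all genes were called lower. The log2 fold change of Atp2a2 was -1.04 without replicate 1 (adjusted p = 0.0648 in limma), and that of Alpl was -4.08 without replicate 1 and -0.91 without replicate 2 (adjusted p = 0.0908). In these fits the lone library is assumed to vary like the BAT-total libraries. Slc6a8 was also called without the filter on low values (adjusted p = 0.0253 in limma), where 20.8% of all genes were called lower. All 4 genes were called when values were scaled to CPM over all genes. On that scale 97% of all genes were called lower, and mitochondrially encoded genes made up most of each BAT-Mito total. The BAT-Mito values of these 4 genes were then smaller than the 1 added before the log. Their spread between the BAT-Mito libraries was thereby reduced.

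Reads observed in BAT-Mito can be set beside those that the BAT-total level would give. For Atp2a2, 30 reads (95% Poisson interval 20.2 to 42.8) were observed where an equal normalised level would give 87.3 and an equal share of nuclear protein-coding counts 55.6. At an equal share, replicate 1 had 7 reads (2.81 to 14.4) where 25.5 were expected, while replicate 2 had 23 (14.6 to 34.5) where 30.1 were expected, within counting error. Ckb, with 5 reads (1.62 to 11.7), lay between 3.54 and 5.57 expected reads on these scales. Slc6a8, with 2 reads where 6.23 or 3.96 were expected, and Alpl, with 1 read where 4.24 or 2.69 were expected, had intervals of 0.242 to 7.22 and 0.0253 to 5.57 that include the expected numbers. For Ckmt2 and Gatm, 3 and 5 reads were observed where at most 0.265 and 0.53 were expected. These last values rest on BAT-total levels of 0 to 4 units whose own error is unknown.

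**Figure D4:**
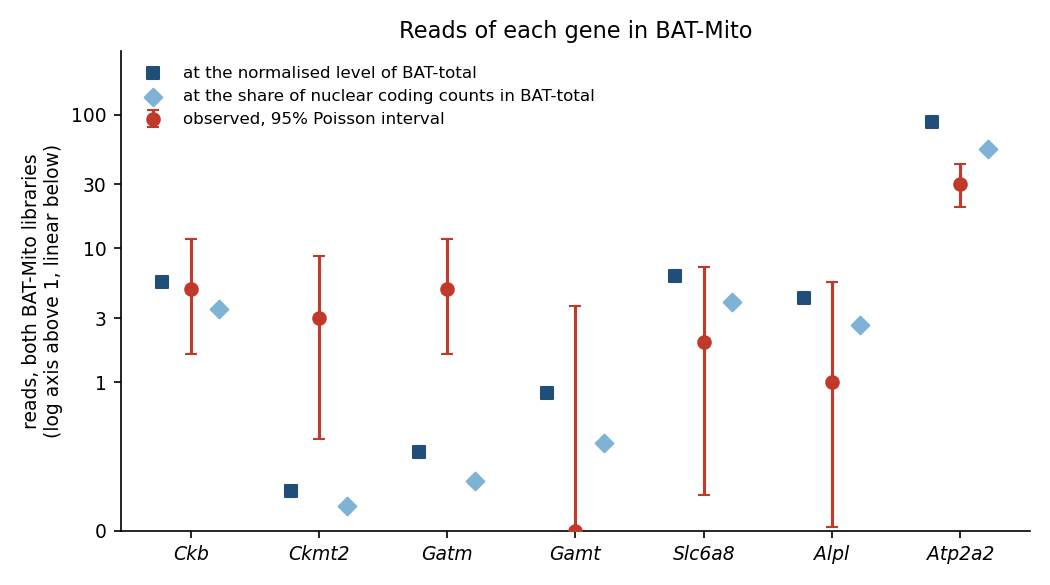
Reads of the 7 listed genes in the BAT-Mito libraries together, with 95% Poisson intervals, beside the reads expected at an equal normalised level (squares) and at an equal share of nuclear protein-coding counts (diamonds), on an axis that is logarithmic above 1 and linear below. Atp2a2, with 30 reads, lies under both expected values (87.3 and 55.6).

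Levels can be compared between genes only per length of transcript. In BAT-total, Atp2a2 had 52.7 and 63.4 normalised counts per kilobase, above Ckb with 12.9 and 15.6. Alpl (7.14 and 5.55 per kilobase) and Slc6a8 (6.05 and 5.8) followed and overlapped each other. Gamt had 2.02 and 5.06, Gatm 1.67 and 0, and Ckmt2 0.673 in both. In BAT-Mito, Atp2a2 (10.2 and 28) and Gatm (0 and 14.7) overlapped each other as well as Ckb (11.5 and 14.3) and Ckmt2 (11.4 and 4.71). Slc6a8 had 2.02 and 1.77 per kilobase there and Alpl 3.17 and 0. Ckb and Ckmt2 rest on 1 to 3 reads a library, and on transcripts of 1472 and 1486 bases. In BAT-Mito replicate 1 they had 2 reads each, so no order between them is read. With the length of all exons of a gene, Ckb took 33.9% and 60.6% of their sum in BAT-Mito.

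The make-up of the libraries moved with the group. The 12 brown adipocyte markers summed to 2996 and 8302 normalised counts in BAT-Mito and to 14081 and 12603 in BAT-total, with Ucp1 at 1290, 3554, 4819 and 4185, and no marker was at 0 in both libraries of a group. Relative to 100 units of these markers, Atp2a2 had 1.94 and 1.92 in BAT-Mito and 2.12 and 2.86 in BAT-total. On this scale Ckb had 0.567 and 0.253 in BAT-Mito and 0.135 and 0.182 in BAT-total, but its BAT-Mito values rest on 2 and 3 reads and no order is read from them. Slc6a8 (0.267 and 0.0843 against 0.17 and 0.182) and Alpl (0.267 and 0 against 0.128 and 0.111) overlapped. This scale was added after the values had been seen, and no gene was called on it.

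Among the other cell types, 8 of 12 heart and slow muscle markers were listed, with sums of 382 and 869 in BAT-Mito and 20 and 15 in BAT-total, led by Myh6 (183 and 531 against 2 and 0). Myl2, Tnnt2, Tnni3 and Nppa have no row in the table used here. The 8 endothelial markers summed to 109 and 35 in BAT-Mito and to 1174 and 1215 in BAT-total, with 2 of them (Egfl7 and Emcn) called lower in BAT-Mito. The 8 macrophage markers summed to 300 and 296 against 91 and 81, the 5 blood cell markers to 250 and 635 against 296 and 624, and the 4 listed of 8 neuron and Schwann cell markers to 17 and 42 against 42 and 40. The part of these cell types in the values of the creatine and calcium genes was not tested.

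SERCA counts were also split by isoform. Atp2a1, the pump of fast skeletal muscle and one of its markers here, had 333 and 110 normalised counts in BAT-Mito and 47 and 99 in BAT-total (log2 fold change 1.47, adjusted p = 0.383 in limma). Atp2a3 had 0 in both BAT-Mito libraries and 13 and 12 in BAT-total. The share of Atp2a2 in the SERCA counts was 14.8% in BAT-Mito replicate 1 (Wilson interval 7.41% to 27.7%) and 59.1% in replicate 2 (43.4% to 72.9%), beside 83.3% and 76.4% in BAT-total. Both BAT-Mito shares lay below both BAT-total shares, with a mean difference of -42.9 percentage points and p = 0.333 in the two-sided exact permutation test. Without BAT-Mito replicate 1 the difference was -20.8 and without replicate 2 it was -65 percentage points. This share was chosen after the values had been seen. Atp2a1 is itself 1 of the 12 muscle markers, and the part of muscle RNA in the share was not tested.

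Other genes of the same pathways were described as lists. Of 49 such genes, 44 were listed and 33 tested, none was called in either direction, and 9 had an unadjusted p under 0.05 in limma, beside 18.1% of all genes tested. Their median log2 fold change was -0.73, beside -1.23 for all genes tested. The smallest adjusted p was 0.0549, for Micu3, a regulator of mitochondrial calcium uptake that had 0 in both BAT-Mito libraries and 13 and 27 in BAT-total.

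Partners of the creatine cycle, which supply or carry ATP and methyl groups, were all listed (15), and 14 were tested with a median of -0.67. Slc25a4, the ADP/ATP carrier, had 125 and 283 normalised counts in BAT-Mito and 331 and 294 in BAT-total, with a log2 fold change of -0.73 that turned positive when scaled to brown adipocyte markers. It was -0.14 without BAT-Mito replicate 1 and -1.31 without replicate 2, where it was called (adjusted p = 0.0321 in limma). Ak3, the GTP-dependent adenylate kinase of the matrix, had 141 and 152 against 216 and 232 (-0.61, turned positive on that scale, with median ratios and with CPM over nuclear protein-coding genes). Vdac1, the channel of the outer mitochondrial membrane, had 83 and 248 against 176 and 160, so that the groups overlapped, and without BAT-Mito replicate 2 it was called lower (-1.01, adjusted p = 0.0396 in limma) while without replicate 1 it came to 0.56. Outside the naming rule, 5 genes of this list had positive log2 fold changes on the deposited scaling, Mat1a (5.05), Ahcy (2.28), Ckm (1.95), Ak4 (1.75) and Ak1 (1.05). Mat1a, the methionine adenosyltransferase of liver, had 208 and 41 against 7 and 0, with an adjusted p of 0.255 in limma, and DESeq2 on reads called it higher, as it did 2.46% of all genes. The liver markers and the muscle markers, Ckm among them, also had higher sums in BAT-Mito, and their part in these values was not tested.

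Partners of calcium cycling were listed for 17 of 20 genes, and the 10 tested had a median of 0.37. Of these, Atp2a1 (1.47), Casq1 (0.91) and Ryr2 (0.75) are also among the muscle markers, whose sums were higher in BAT-Mito, and the part of muscle RNA in this median was not tested. Calr, a calcium-binding chaperone of the endoplasmic reticulum, had 499 and 186 normalised counts in BAT-Mito and 225 and 180 in BAT-total, and the groups overlapped. Its log2 fold change of 0.60 was -0.11 without BAT-Mito replicate 1 and 1.31 without replicate 2. The IP3 receptors Itpr1 (100 and 83 against 398 and 373) and Itpr2 (75 and 21 against 425 and 402), through which calcium leaves the reticulum, had log2 fold changes of -2.07 ± 0.42 and -3.34 ± 0.80 (SE), with adjusted p-values of 0.16 and 0.2 in limma. Both lay below BAT-total in each BAT-Mito library. On reads both were called, with adjusted p-values of 0.034 and 0.0231 in edgeR and 0.00131 and 0.00261 in DESeq2, where 4.02% and 4.19% of all genes were called lower. They were also called in limma with either BAT-Mito library left out (0.0147 to 0.019), settings in which 41.1% and 47% of all genes were called lower. The log2 fold change of Itpr2 was -4.24 without replicate 1 and -2.45 without replicate 2. Scaled to brown adipocyte markers, Itpr1 came to -0.66 and Itpr2 to -1.93. Neither was called there (adjusted p = 0.826 and 0.719 in limma), on a scale where no gene was. Ryr1, the ryanodine receptor of skeletal muscle, had 241 and 62 against 19 and 43 (2.06), and was named after its values were seen.

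Of 10 genes for mitochondrial calcium uptake and release, 9 were listed and 7 tested, with a median of -1.11. Mcur1 had 100 and 173 normalised counts in BAT-Mito and 295 and 277 in BAT-total (log2 fold change -1.11), with -0.72 without BAT-Mito replicate 1 and -1.51 without replicate 2, where it was called (adjusted p = 0.0228 in limma). Letm1, an ion exchanger of the inner membrane, had 42 and 90 against 367 and 274 (-2.35, adjusted p = 0.217 in limma). It was called on reads (adjusted p = 0.0374 in edgeR and 0.0155 in DESeq2), beside 4.02% and 4.19% of all genes called lower. In limma Letm1 came to -1.81 without BAT-Mito replicate 1 and to -2.89 without replicate 2. Scaled to brown adipocyte markers it came to -0.94 (adjusted p = 0.642 in limma), on a scale where no gene was called. Mcu, the pore of the calcium uniporter, had 108 and 0 against 24 and 19, so that its BAT-Mito libraries lay on either side of BAT-total, and it was called lower (-4.48, adjusted p = 0.017 in limma) without replicate 1 and higher (2.29, 0.0264) without replicate 2. Of the 4 plasma membrane calcium pumps, 3 were listed and 2 tested. Atp2b1 had 58 and 48 against 55 and 70, and Atp2b4 had 25 and 7 against 43 and 51 (-1.73), with -2.58 without BAT-Mito replicate 1, where it was called (adjusted p = 0.0224 in limma), and -0.88 without replicate 2. Of all genes, 46.8% were called in either direction without BAT-Mito replicate 1 and 54.6% without replicate 2.

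**Figure D5:**
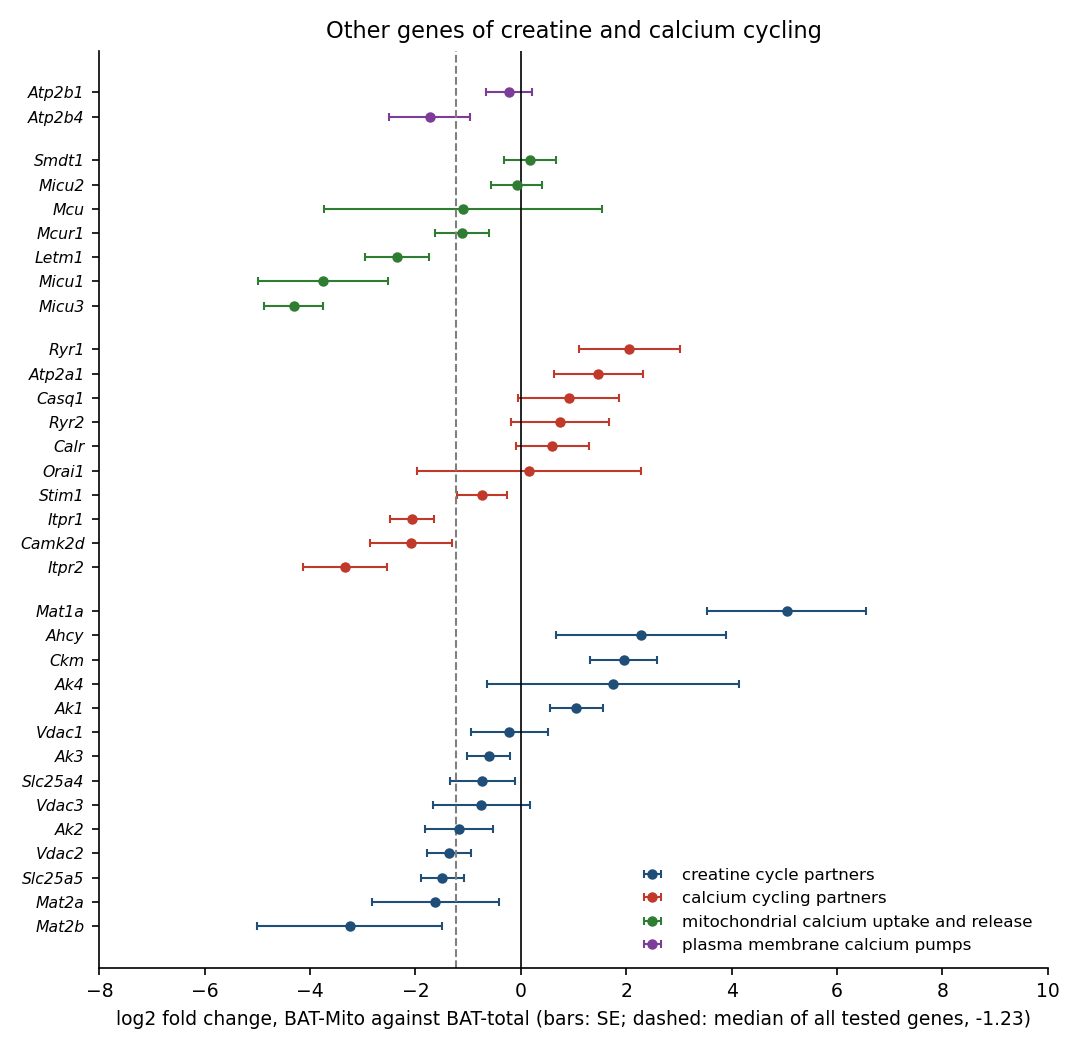
Log2 fold changes (BAT-Mito over BAT-total) of the tested genes in each related list, with 1 point per gene, SE as bars, colours for the lists and the median of all genes tested (-1.23) as a dashed line. No point belongs to a gene that passed an adjusted p of 0.05 in limma.

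The profile of Atp2a2 over the 4 libraries was shared by many genes. Of 7662 protein-coding genes, 68 lay within a Euclidean distance of 1 on the log2 scale. The nearest were Prelp (distance 0.29; 67 and 159 normalised counts in BAT-Mito, 302 and 312 in BAT-total), Fam210a (0.37), Ddhd2 (0.37), Atxn2 (0.39) and Uqcrb (0.40).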

How the data were processed

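RNA from 2 BAT-Mito and 2 BAT-total libraries was sequenced by the authors from 10 ng of RNA with a stranded low-input kit. For heart mitochondria the study describes digitonin and RNase A treatment before RNA isolation, and fragmentation was adjusted for mitochondrial RNA. The submitters' processing notes name Trimmomatic 0.39, STAR 2.7.10a, featureCounts 2.0.2, DESeq2 1.30.1 and mm10. The strand setting of the counting is not given in the sources used here.

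The deposited values are a signal, which the authors made from gene counts with 1 size factor per library and then rounded. Whole reads were recovered for 100.0% of the BAT-Mito values, with a tolerance of 0.5 units, the rounding of the table, plus 1e-06 of the value. Genes with a mean of at least 10 (8215) were compared as log2(value + 1) with limma 3.58.1 in R 4.3.3 (two-sided, no trend, Benjamini-Hochberg, threshold 0.05). Fold changes of low genes on this scale can be too small or, with a 0 in a BAT-Mito library, too large. Slc6a8 was at -1.53 here and -1.64 with DESeq2 on reads, Alpl at -2.49 and -2.07. The median of all genes tested was -1.23 here, -0.80 with edgeR and -0.81 with DESeq2. Step recovery and the limma test were run on simulated data. For the test, these had a lower dispersion than the 0.083 that edgeR gave for the libraries here. The changes put in were larger than those of the creatine and calcium genes tested. They therefore do not show how often changes of that size would be called. On reads, edgeR 4.0.16 and DESeq2 1.42.0 were run with BAT-total values taken as reads. DESeq2 gave no adjusted p for Slc6a8 and Alpl. Its shares of genes called are of all 8215 genes, those without an adjusted p included. edgeR called 135 genes higher and 330 lower. Intervals (95%, Wilson or exact Poisson) and the floor of 3 reads cover counting error only. Lengths and overlaps come from GENCODE M21 and matches from BLAST 2.17.0.

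The genes and lists were chosen with earlier results of these data known. Named were all members, the 3 tested genes of each related list with the highest mean, those called, at most 2 markers per cell type, and the 5 nearest to Atp2a2. Genes outside this rule (Ckm, Atp2a1, Atp2a3, Ryr1, Ryr2, Casq1, Micu3, Mat1a, Ahcy, Ak1, Ak4, the pseudogenes and overlapping genes) were named after their values were seen. Alternatives covered pseudocount, filter, scaling, trend, block and left-out libraries.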

Additional observations from a re-analysis of the deposited data

How the results depend on the processing

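With 2 libraries a group and 0 to 3 BAT-Mito reads for most of these genes, depth limits what could be detected. The 428 genes called became 54 with a pseudocount of 10, 3730 without the filter, 75 with a mean of at least 50, 7999 with CPM over all genes, 0 with the replicate number as a block, 0 after scaling to brown adipocyte markers (added after the values were seen) and 0 to 4486 without 1 library. Of these calls 15.4% were higher in BAT-Mito, beside 98.1% with a pseudocount of 10, 3.83% without the filter, 85.3% with a mean of at least 50, 0.388% with CPM over all genes, 29% with edgeR and 37% with DESeq2. Same-numbered libraries are not stated to be paired, and with the block, as without it, 0 of the creatine and calcium genes and 0 of the related genes were called.

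Of the creatine and calcium genes, 0 were called in limma, beside 1 without the filter, 4 with CPM over all genes and 0 to 2 without 1 library. Of the related genes, 0 were called, beside 11 without the filter, 32 with CPM over all genes, 1 with CPM over nuclear protein-coding genes, 2 with a trend, 3 with edgeR (Itpr1, Itpr2, Letm1), 4 with DESeq2 (these, all lower in BAT-Mito, and Mat1a, higher) and 0 to 18 without 1 library. Of all genes 5.21% were called as reported, and 21.6%, 97.4%, 5.27%, 6.38%, 5.66% and 6.65% in these 6 settings in this order, and up to 54.6% without 1 library. The median of -1.64 became -0.94 (pseudocount 10), -1.53 (no filter), -1.76 (mean of at least 50, Atp2a2 alone), -1.31 (TMM), -1.02 (median ratios), -3.68 (CPM, all genes), -1.04 (CPM, nuclear protein-coding), -0.28 (brown adipocyte markers) and -1.70 to -1.18 without 1 library. The median of all genes moved likewise, from -1.23 to -0.90, -0.62, -4.25, -0.70 and 0.10 under the 5 scalings in this order.

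Some signs turned. Ckb came to 0.19 with TMM, 0.48 with median ratios, 0.49 with nuclear CPM, 1.21 with brown adipocyte markers and -0.28 to 0.006 without 1 library. Vdac1 came to 0.12, 0.43, 0.42 and 1.18 on these 4 scales, 0.015 with edgeR and -1.01 to 0.56 without 1 library. Atp2b1 came to 0.11, 0.41, 0.41 and 1.17, and Ak3 to 0.041, 0.038 and 0.80 on the last 3. With brown adipocyte markers Slc25a4 came to 0.68, Mcur1 to 0.30 and Mcu to 0.29. Mcu was 0.13 with a pseudocount of 10, 1.24 with edgeR, 1.32 with DESeq2 and -4.48 to 2.29 without 1 library. Calr was -5.48 with CPM over all genes and -0.11 to 1.31 without 1 library. The share of Ckb differed by -45.4 to -20.4 and that of Atp2a2 by -65 to -20.8 percentage points without 1 library. The cause of these changes was not tested.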
